A study of Rattus norvegicus and Mus musculus with 3 samples.

Results

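Activity-induced immediate early genes are transcribed within minutes of neuronal firing, without new protein synthesis, and their RNA then decays quickly. Calcium entry through synaptic receptors and channels reaches them by kinases that act on the factors CREB, SRF and its ELK partners, and MEF2. Their RNA in hippocampus is widely read as a trace of recent activity. The 10 members described here were taken by name: the AP-1 genes Fos, Fosb and Junb, the zinc finger genes Egr1, Egr2, Egr3 and Egr4, the nuclear receptor gene Nr4a1, the bHLH-PAS factor gene Npas4 and the synaptic effector gene Arc. All 10 were found in each library, among 30438 genes listed for 2VO, 30438 for Sham and 34714 for the mouse.

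RNA-seq was run on hippocampus of 3 animals or animal groups, with 1 library each; no source used here says whether animals were pooled. The 2VO library came from rats of genotype WT aged 3 to 4 months, and the Sham library from rats of the same genotype and age. In this field 2VO usually names ligation of both common carotid arteries, which lowers blood flow to the brain, and Sham the surgery without ligation. The mouse library is labelled 3xTg-AD wild type, with genotype WT and an age of 6 months, and so stands for animals without the transgenes of that Alzheimer's disease model. Strains, sexes and the interval between surgery and dissection are not stated in the labels.

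The tables give 1 normalized value per gene on a scale that no source used here names, called units below, so read depth is unknown. They summed to 333941 in 2VO, 325636 in Sham and 268889 in the mouse. Whether they are per length is not known, so no gene's level is read as above or below another's. Sums over marker lists and ranks within a library do mix genes on this scale, and they are used only to set libraries side by side. With 1 library per group no difference has a replicate check and no test was run. Each comparison therefore describes these libraries and not the conditions. In bulk tissue fewer cells of a type and less RNA per cell cannot be told apart. Markers of the labelled tissue were present in part. Of 12 dentate granule cell markers 9 were measured in the rats, while Dsp, Lct and Tdo2 were not: Dsp was 0.649 units in 2VO and 1.29 in Sham, Lct 0.0128 and 0.0104, and Tdo2 was listed at 0 in 2VO and at 0.0118 in Sham. In the mouse these 3 were 6.65, 7.03 and 2.87 units. The granule cell gene Prox1 was 14.8 units in 2VO, 17.2 in Sham and 17.8 in the mouse, and the CA1 gene Wfs1 was 111, 169 and 23.4 units in the same order.

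RefSeq promoter sequences of the rat assembly GRCr8 were matched by symbol for 7 of the 10 members, and Fos, Egr3 and Arc had no entry. The 250 bases before the start are shown for 4 of them: Npas4, the member with the highest 2VO to Sham ratio, Egr2, which shares motifs with Egr1, and Nr4a1 and Egr4, whose values in both rats were nearly equal. Capitals mark 3 motifs on either strand: the CArG box, which is the SRF site, TGACG, the core of the CREB site (read as CGTCA on the other strand), and TATANAA, a form of the TATA box.
Egr2: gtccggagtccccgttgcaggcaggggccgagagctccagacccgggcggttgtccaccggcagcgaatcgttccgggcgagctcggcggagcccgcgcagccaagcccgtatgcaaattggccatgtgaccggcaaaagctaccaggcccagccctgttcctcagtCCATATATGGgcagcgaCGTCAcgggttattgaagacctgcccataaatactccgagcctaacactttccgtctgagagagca
Npas4: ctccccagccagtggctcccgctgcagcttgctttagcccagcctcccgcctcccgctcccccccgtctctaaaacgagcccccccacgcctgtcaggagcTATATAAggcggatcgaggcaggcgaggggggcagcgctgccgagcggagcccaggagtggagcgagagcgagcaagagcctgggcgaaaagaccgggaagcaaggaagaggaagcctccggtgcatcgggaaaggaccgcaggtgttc
Nr4a1: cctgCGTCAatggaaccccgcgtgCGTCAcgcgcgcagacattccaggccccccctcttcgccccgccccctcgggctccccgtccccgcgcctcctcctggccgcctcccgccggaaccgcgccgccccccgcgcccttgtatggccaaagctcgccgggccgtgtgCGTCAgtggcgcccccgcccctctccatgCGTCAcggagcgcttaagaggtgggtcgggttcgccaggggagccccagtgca
Egr4: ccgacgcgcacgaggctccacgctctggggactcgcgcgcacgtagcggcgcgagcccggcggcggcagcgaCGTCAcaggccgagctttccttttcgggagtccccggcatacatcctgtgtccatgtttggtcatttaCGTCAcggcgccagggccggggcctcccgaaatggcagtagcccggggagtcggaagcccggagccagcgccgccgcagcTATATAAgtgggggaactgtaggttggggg
These windows are chr20:21054442-21054691 on the minus strand for Egr2, chr1:211716103-211716352 on the minus strand for Npas4, chr7:134259888-134260137 on the plus strand for Nr4a1 and chr4:119607818-119608067 on the minus strand for Egr4.

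CArG boxes were found in 2 of the 7 members, against 1.5% of all 27457 rat promoter windows of the same length. Egr1, whose sequence is not shown, held 2 of them, and at least 2 were found in 0.0255% of all windows. Egr2 held 1, CCATATATGG, 83 to 74 bases before the start, and Egr1 had a CArG box at that same distance. Both genes also had CGTCA at 66 to 62 bases before the start. TGACG was found in 5 of the 7 members, against 19% of all windows, with 4 matches in Nr4a1, 2 each in Egr1 and Egr4 and 1 each in Egr2 and Junb. TATANAA was found in 4 members, against 11.5% of all windows. It lay 30 to 24 bases before the start in Egr4 and 49 to 43 in Junb, but 149 to 143 bases before the annotated start in Npas4. In Fosb it lay 181 to 175 bases before the start and on the opposite strand. The count is therefore of letter runs and not of TATA boxes in use. The AP-1 site TGANTCA and the full CREB site TGACGTCA, which contains TGACG, were found in 0 of the 7 members and in 6.36% and 1.7% of all windows. The EGR site GCGNGGGCG was found in Nr4a1 alone of the 7, against 4.53% of windows. Both strands were searched for every motif. A match is a run of letters and not evidence of binding, and the sequence is that of the reference and not of these animals.

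Between the 2VO and Sham rats the members were unequal. Npas4, Egr1 and Fos were higher in 2VO by at least 1.5-fold, while Nr4a1, Egr3 and Egr4 were nearly equal, with plain ratios of 2VO to Sham of 1.01, 1.03 and 0.981. Junb, Fosb and Arc lay between these, with plain ratios of 1.19, 1.30 and 1.12. Ratios below are log2((2VO + 1)/(Sham + 1)), which understates differences of low values. They are counted over genes with a rat mean of at least 1 unit, here called measured. Of the members 9 were measured, and Egr2 was not. Npas4 passed this filter only through its 2VO value, since its Sham value was under 1 unit, so its place in the counts below is set in part by the filter. At least 1.5-fold higher in 2VO were 3 of the 9, and at least 1.5-fold lower were 0 of the 9. With a mean of at least 5 units, which leaves Npas4 and Fosb out as well, the higher count was 2 of 7, Fos and Egr1. Of all 9233 genes with such a mean, 1.05% were that much higher. Among all 13550 measured genes 1.51% were that much higher and 0.967% that much lower. At 2-fold the higher count was Npas4 alone, beside 0.244% of measured genes, and nothing is read from it for the reason just given; 0 members were 2-fold lower, beside 0.199%. The median ratio of the 9 was 0.24, against 0.04 over all measured genes, whose SD was 0.24 and whose central 95% ran from -0.41 to 0.50. Higher in 2VO by any amount were 8 of the 9, against 58.7% of all measured genes.

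**Figure D1:**
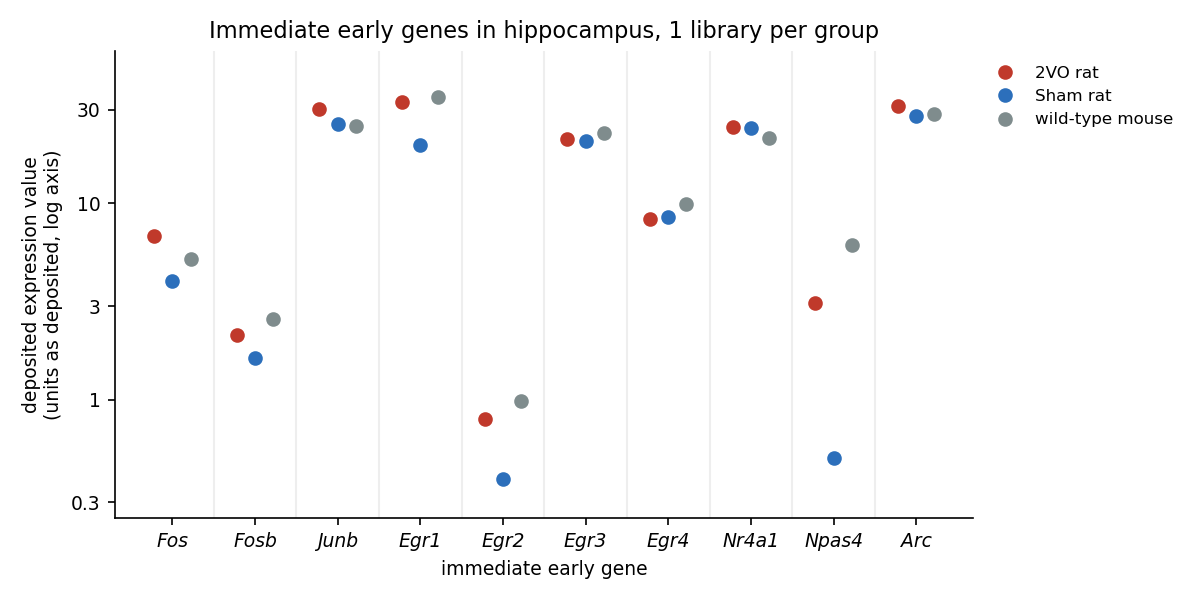
Deposited expression value (log axis) of the 10 immediate early genes in the 2VO rat, the Sham rat and the wild-type mouse, 1 point per library and no error bars because each group is 1 library. The points of Npas4 are the furthest apart, at 3.11, 0.502 and 6.12 units, while those of Nr4a1 lie between 21.5 and 24.5 units.

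**Figure D2:**
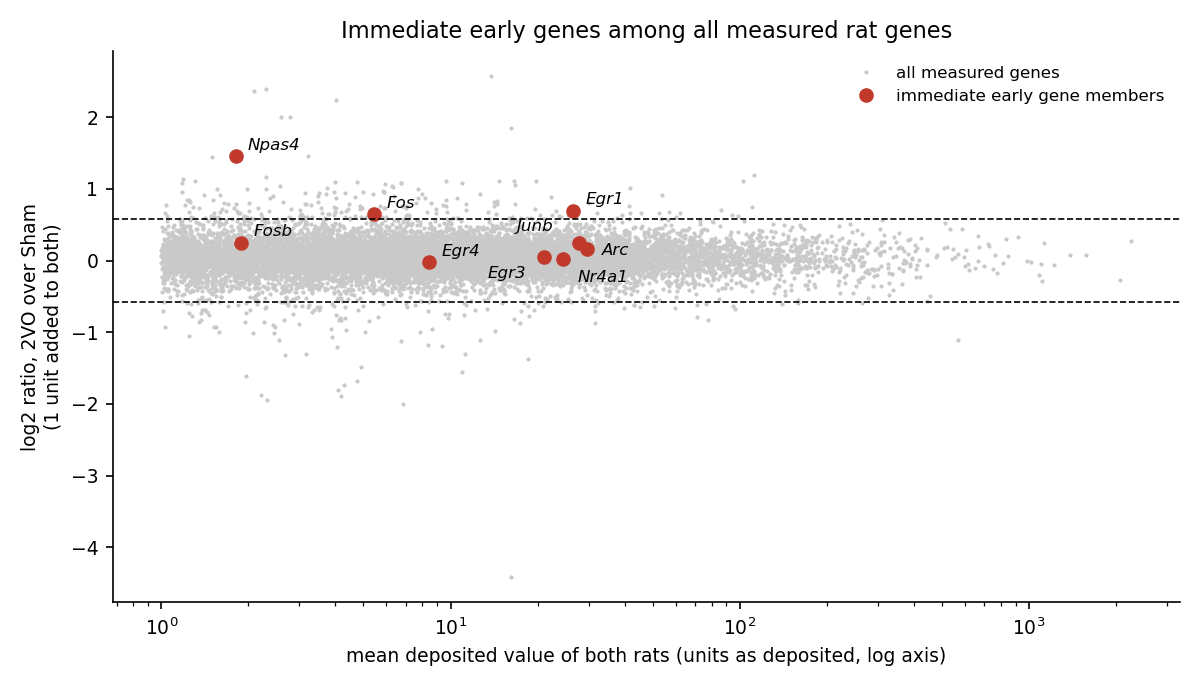
Log2 ratio of 2VO over Sham, with 1 unit added to both values, against the mean deposited value of both rats (log axis) for 13550 measured genes in grey and the 9 measured immediate early genes in red. Dashed lines mark 1.5-fold; Npas4, Egr1 and Fos lie above the upper line and the other 6 between the lines.

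The AP-1 genes encode leucine zipper proteins that bind DNA as FOS and JUN pairs. Fos, whose product pairs with JUN proteins and whose RNA is a common marker of recently active neurons, was 6.86 units in 2VO and 4.03 units in Sham. Its ratio of 0.64 was exceeded or equalled by 150 of the 13550 measured genes, itself included, and among genes with a mean of 5 to 20 units 1.26% were at least 1.5-fold higher. Fosb, which also gives the long-lived truncated form delta-FosB, was 2.14 units in 2VO and 1.64 units in Sham, a ratio of 0.25. Junb, which encodes a JUN protein of weaker activating strength than JUN, was 30.1 units in 2VO and 25.4 units in Sham, a ratio of 0.24. So within this family Fos stood 0.39 above Fosb and 0.41 above Junb on the log2 scale, and Fosb and Junb differed by 0.01.

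The EGR genes encode factors with closely related zinc fingers that bind GC-rich sites, and the NAB proteins restrain them. Egr1, also known as Zif268 and linked to the late phase of synaptic potentiation, was 33.0 units in 2VO and 19.9 units in Sham. Its ratio of 0.70 was reached by 118 measured genes, and among genes with a mean of 20 to 50 units 0.683% were at least 1.5-fold higher. Egr2, also known as Krox20 and required for peripheral myelination, was 0.794 units in 2VO and 0.392 units in Sham. That is a plain ratio of 2.03, or 0.37 with 1 unit added, from values too low for the filter. Egr3, which in mouse is needed for muscle spindles and for memory, was 21.4 units in 2VO and 20.7 units in Sham, a ratio of 0.04. Egr4 was 8.37 units in 2VO and 8.53 units in Sham, a ratio of -0.02 and the only one of the 10 that was lower in 2VO. Egr1 stood 0.65 above Egr3 and 0.72 above Egr4 on the log2 scale, so the family did not differ as a unit between these libraries.

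Nr4a1, also known as Nur77, encodes an orphan nuclear receptor that acts without a known hormone. It was 24.5 units in 2VO and 24.3 units in Sham, a ratio of 0.01. Npas4, whose induction is selective for calcium entry in neurons and whose product shapes inhibitory synapses, was 3.11 units in 2VO and 0.502 units in Sham. Its plain ratio was 6.20 and its log2 ratio with 1 unit added was 1.45, a value that 9 of the 13550 measured genes reached. Both values are low: among genes with a mean of 1 to 5 units the SD of the ratio was 0.28, and 2.5% were at least 1.5-fold higher. Arc, whose RNA travels to dendrites and whose protein removes AMPA receptors from synapses, was 31.3 units in 2VO and 27.9 units in Sham, a ratio of 0.16. Among the 10 members, then, the highest ratio belonged to a gene listed at low values in both rats.

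The direction of the flat members rests on the scaling. With upper quartiles made equal, Egr3 and Nr4a1 joined Egr4 below 0, and 6 of the 9 were higher in 2VO. Over all genes the same scaling gave 156 higher and 165 lower at 1.5-fold, against 205 and 131 as deposited. Npas4, Egr1 and Fos kept a ratio past 1.5-fold under every one of the 4 scalings and centrings that use all genes. The largest shift of a member in those settings was only 0.05, so they are a narrow check. Fos was lowest with upper quartiles made equal, at 0.60. Centring on the pan-neuronal markers shifted the median of all measured genes by -0.23, and only Npas4 then remained past 1.5-fold, at 1.22. Egr1 was 0.47 and Fos 0.41 in that setting, and the median of the members was 0.01. With 4 units added in place of 1, Fos was also under 1.5-fold, at 0.44.

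**Figure D3:**
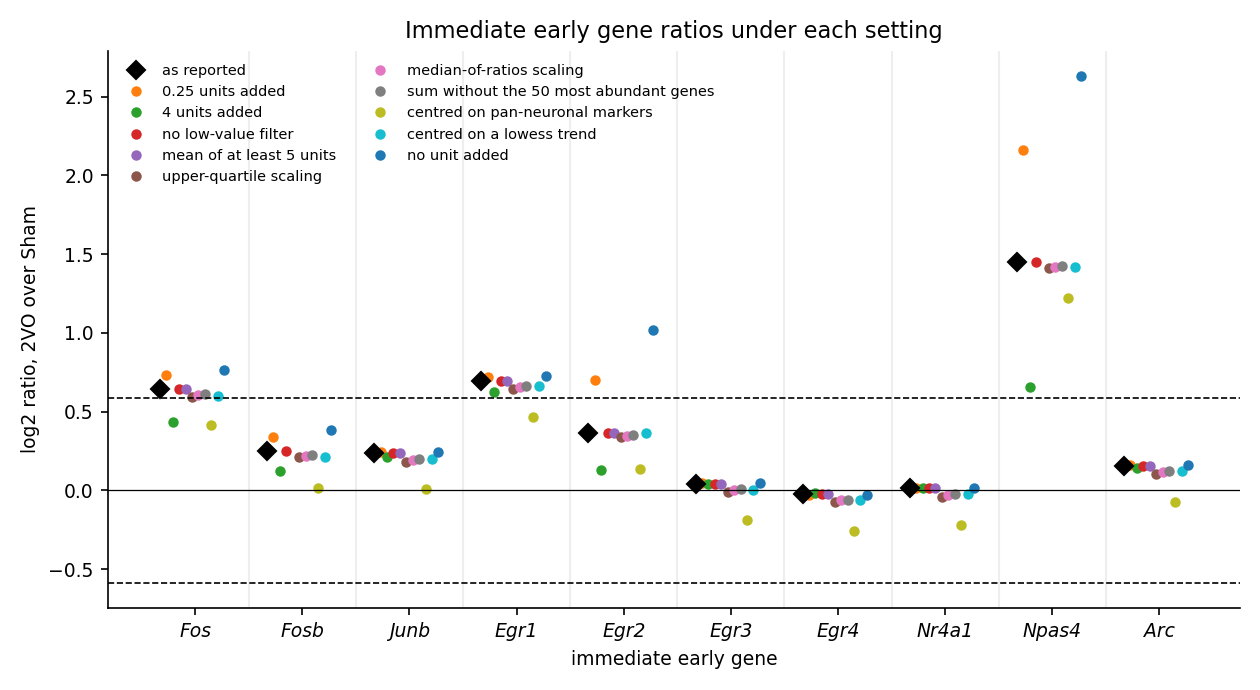
Log2 ratio of 2VO over Sham for each immediate early gene as reported (black diamonds) and under each other setting (coloured points); dashed lines mark 1.5-fold and Egr2 is shown although its mean was under 1 unit. Npas4 lies above the upper line in every setting in which it was measured, from 0.66 with 4 units added to 2.63 with none.

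The regulators of these genes were set beside the members as a list. Of 34 upstream kinases, cofactors and transcription factors, all 34 were measured and 0 were past 1.5-fold in either direction, with a median ratio of 0.02. Among all measured genes 1.51% were that much higher and 0.967% that much lower. In a list of this length a count of 0 is near those shares, so nothing is read from it. Adcy1, an adenylyl cyclase gene, came closest to the cut, at 129 units in 2VO and 190 units in Sham, a ratio of -0.55. Srf, the factor that binds CArG boxes, was 16.4 units in 2VO and 17.8 units in Sham. Its partner gene Elk1 was 14.1 units in both, and Creb1, the CREB gene, was 4.31 units in 2VO and 3.98 units in Sham. The gene of the list with the highest mean was Ppp3r1, the regulatory subunit of calcineurin, at 278 units in 2VO and 304 units in Sham. RNA levels of these proteins do not report their phosphorylation.

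Partner genes of the members are given as 3 lists, and 0 of those measured were past 1.5-fold. Among all measured genes 1.51% were that much higher and 0.967% that much lower. In lists this short a count of 0 is near those shares, so it is not read as a trait of partner genes. Of 8 AP-1 partners 4 were measured, 1 higher and 3 lower in 2VO, and 0 were past 1.5-fold. Jun was 31.7 units in 2VO and 32.8 units in Sham, and Jund, a JUN gene expressed at rest, was 65.9 units in 2VO and 84.0 units in Sham. The stress-induced gene Atf3 did not reach the filter, at 0.269 units in 2VO and 0.858 units in Sham. Of 6 NR4A and EGR partners 3 were higher and 3 lower, and 0 were past 1.5-fold. Nr4a2 and Nr4a3, the paralogues of Nr4a1, were 9.16 and 15.3 units in 2VO, against 7.44 and 16.1 units in Sham. Rxrb, a retinoid receptor gene and the one with the highest mean, was 24.6 units in 2VO and 29.8 units in Sham. The EGR corepressor gene Nab2, itself an EGR target, was 11.5 units in 2VO and 12.5 units in Sham. Of 15 NPAS4 and ARC partner genes 9 were higher and 6 lower with 0 past 1.5-fold, and Camk2b, a CaM kinase II subunit gene and the one with the highest mean, was 385 units in 2VO and 452 units in Sham. Arnt2, the dimer partner of NPAS4, was 26.6 units in 2VO and 20.4 units in Sham.

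Among other immediate early genes, more were lower than higher in 2VO. Of 34 in the list 33 were measured; 13 were higher and 20 lower in 2VO, with a median ratio of -0.08, and 3 were at least 1.5-fold lower while 0 were that much higher. Over all measured genes 58.7% were higher by any amount, 0.967% were at least 1.5-fold lower and 1.51% that much higher. Klf4 and Cyr61, among the 20 lower, were under 1 unit in 2VO and passed the filter only through Sham. The count of 20 is therefore set in part by the filter. Apold1, an immediate early gene of endothelial cells, was 2.15 units in 2VO and 11.6 units in Sham, a ratio of -2.00. Btg2, an antiproliferative gene, was 6.84 units in 2VO and 12.7 units in Sham, a ratio of -0.81. Cebpd, a C/EBP factor gene of the acute phase response, was 8.72 units in 2VO and 13.9 units in Sham, a ratio of -0.62. Dusp1, a phosphatase that switches off MAP kinases, was 14.9 units in 2VO and 18.7 units in Sham. Ier5, the gene of this list with the highest mean, was 24.7 units in 2VO and 28.7 units in Sham.

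Activity-induced effector genes, which follow the transcription factors, had a median of 0.05. Of 32 in the list 26 were measured, 17 of them higher and 9 lower in 2VO, with 1 past 1.5-fold each way. Over all measured genes 58.7% were higher by any amount, 1.51% at least 1.5-fold higher and 0.967% that much lower. The counts are therefore not read as particular to effector genes. Rgs4, a brake on G protein signalling, was 23.0 units in 2VO and 10.2 units in Sham, a ratio of 1.10. Cort, the cortistatin neuropeptide gene, was 4.74 units in 2VO and 11.99 units in Sham, a ratio of -1.18. Bdnf, the neurotrophin gene that NPAS4 regulates, was 7.59 units in 2VO and 9.87 units in Sham, and so did not share the direction of Npas4. Nptx1, a neuronal pentraxin gene with the highest mean of the list, was 167 units in 2VO and 153 units in Sham. The synaptic genes Homer1 and Nptx2 were 14.0 and 22.1 units in 2VO, against 14.3 and 21.0 units in Sham.

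**Figure D4:**
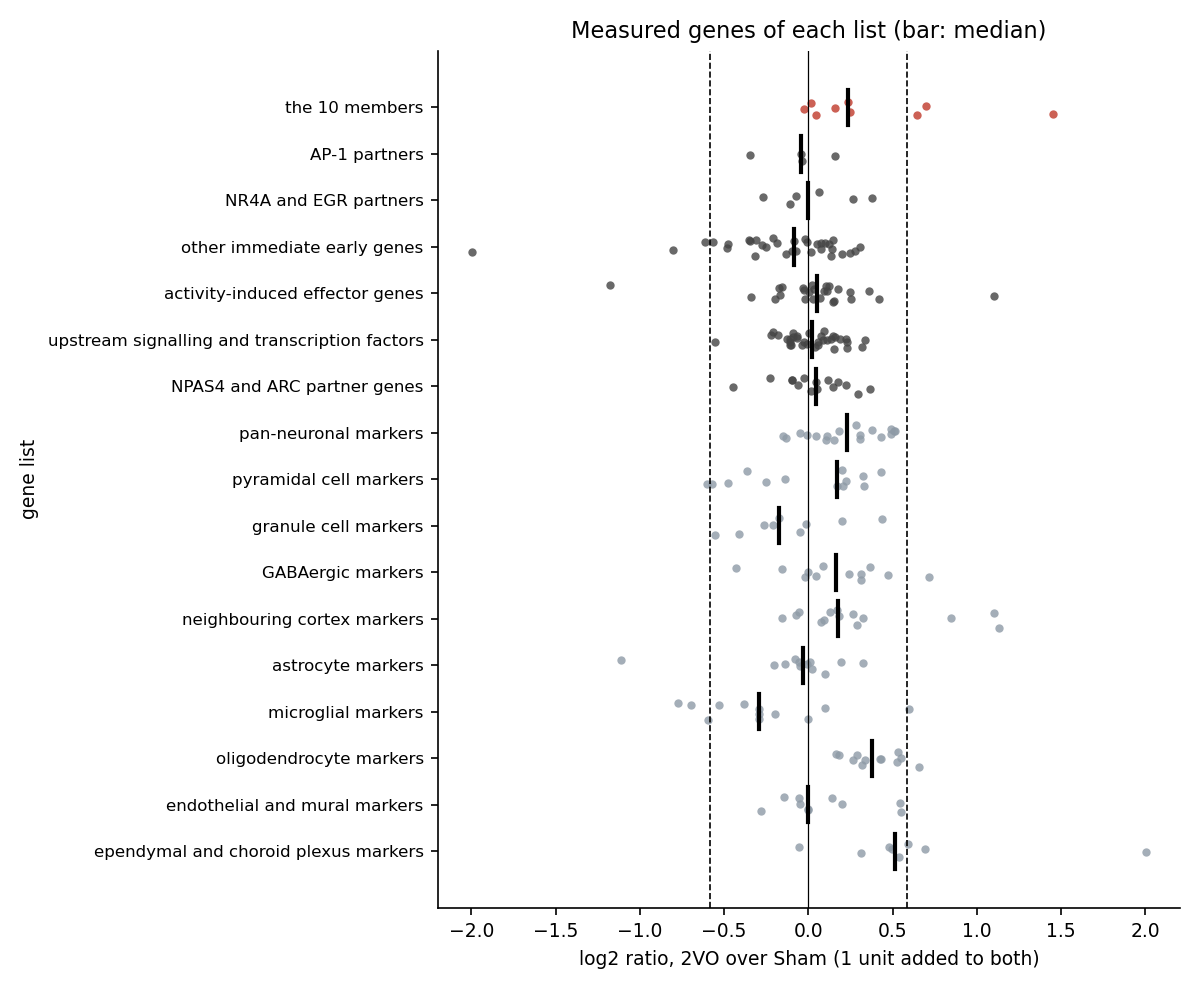
Log2 ratio of 2VO over Sham, with 1 unit added to both, for each measured gene of the 10 members (red), the other pathway lists (dark grey) and the cell type lists (light grey), with a bar at each median and dashed lines at 1.5-fold. The members' median is 0.24, close to the pan-neuronal median of 0.23, while that of the other immediate early genes is -0.08.

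Summed values of cell type markers were compared beside those of the members. Pan-neuronal markers were higher in 2VO in 14 of 18 genes with a median of 0.23 and 0 past 1.5-fold, and their summed values were 4112 units in 2VO and 3601 units in Sham. None of them was listed at 0. Markers of neighbouring cortex and striatum were higher in 11 of 14 measured genes, of 16 in the list, with a summed value of 143 units in 2VO and 118 units in Sham and with 0 genes at 0. Beside both counts, 58.7% of all measured genes were higher in 2VO. Among the 11 are Nr4a2 and Ctgf, which are also in the NR4A partner list and the list of other immediate early genes. Tcf7l2 and Lef1 are among the 11 too, so the count is not of cortical and striatal genes alone. The upper-layer and deep-layer cortical genes Lamp5 and Fezf2 were 27.3 and 12.7 units in 2VO, against 12.2 and 6.62 units in Sham. Rspo1, a WNT agonist gene, was 2.01 units in 2VO and 0.373 units in Sham. It passed the filter only through its 2VO value, so its place among the 11 is set in part by the filter. The cortical gene Tbr1 was 12.5 units in 2VO and 13.0 units in Sham. The striatal genes were not higher as a set. Ppp1r1b and Drd1 were 49.0 and 1.16 units in 2VO, against 51.7 and 1.41 units in Sham, and Adora2a was not measured. The part of these markers in the Npas4, Egr1 and Fos values was not tested.

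Within the hippocampal neurons the markers were divided. The counts of each list below stand beside 58.7% of all measured genes that were higher in 2VO, and several lie near that share. Pyramidal cell markers were higher in 7 and lower in 6 of 13 measured genes, with summed values of 636 units in 2VO and 705 units in Sham, and granule cell markers were higher in 2 and lower in 7 of 9 measured genes, with 244 units in 2VO and 267 units in Sham. The pyramidal median of 0.17 had the opposite sign to the difference of the sums, which were 525 units in 2VO and 536 units in Sham without Wfs1. GABAergic markers were higher in 8 and lower in 4 of 12 genes, with 418 units in 2VO and 405 units in Sham. Endothelial and mural markers, set beside Apold1, were higher in 4 and lower in 6 of 10 measured genes of 12, with 98.4 units in 2VO and 91.1 units in Sham. Microglial markers were lower in 10 of 12 genes, with 176 units in 2VO and 223 units in Sham, and astrocyte markers in 7 of 12, with 1861 units in 2VO and 2141 units in Sham. Gfap turned that astrocyte sum: the other 11 genes summed to 1501 units in 2VO and 1363 units in Sham. S100b and Aldoc weigh on this second sum, at 556 and 379 units in 2VO against 487 and 302 units in Sham. The median ratio of all 12 astrocyte markers was -0.03. Oligodendrocyte markers were higher in all 12, with 4959 units in 2VO and 3951 units in Sham. Ependymal and choroid plexus markers were higher in 7 of 8 measured genes of 12, with 22.1 units in 2VO and 11.2 units in Sham. Prlr of that list was at 0 in Sham. Of the 7, Ttr, Ak7 and Folr1 were under 1 unit in Sham and passed the filter only through 2VO. That count and the place of Ttr past 2-fold are therefore set in part by the filter. Past 2-fold among these lists were also Gfap, the astrocyte intermediate filament gene, at 360 units in 2VO and 778 units in Sham, and Ttr, the choroid plexus transthyretin gene, at 4.75 units in 2VO and 0.434 units in Sham. Their part in the members' values was not tested.

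The wild-type mouse library gave levels from another species and age. Fos, Fosb and Junb were 5.18, 2.57 and 24.9 units in it. Egr1, Egr2, Egr3 and Egr4 were 34.9, 0.990, 22.7 and 9.98 units, and Nr4a1, Npas4 and Arc were 21.5, 6.12 and 28.6 units. Egr2 stayed under 1 unit in all 3 libraries. Of the other 9 members the mouse was the highest library for 5 and 2VO for 4, against 36.5% and 35.9% of the 11952 symbols that both species share with at least 1 unit in any library. Sham was the lowest for 6 of the 9, the exceptions being Junb, Nr4a1 and Egr4, against 29.8% of those symbols. Npas4, which is among the 6, passed that filter only through 2VO and the mouse. The Sham library is common to both of those orderings, so they are not separate evidence about 2VO.

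Ranks within each library do not depend on its scaling. Among the same shared symbols Npas4 stood at percentile 20.6 in 2VO, 2.15 in Sham and 38.7 in the mouse. It entered this ranking only through 2VO and the mouse, being under 1 unit in Sham. Its low rank in Sham is therefore set in part by the filter. Fos stood at 39.1 in 2VO, 26.6 in Sham and 34.1 in the mouse, and Egr1 at 83.0, 72.3 and 86.9. Their ranks in 2VO exceeded those in Sham by 18.4, 12.5 and 10.7 points. Ranked instead among genes above 0 in each library, the gaps were 17.4, 9.62 and 8.45 points. Arc ranked at 81.9 in 2VO, 80.2 in Sham and 83.5 in the mouse, and Nr4a1 at 76.7, 77.1 and 77.0, the narrowest range of the 9 members ranked. Egr2 was not ranked. The rank in 2VO was above that in Sham for 7 of the 9, against 49.4% of the shared symbols, and Sham had the lowest rank of the 3 for 7 of the 9, against 29.6%. Npas4, with the limit just given, is part of both counts. So is Egr3, by a narrow gap of 73.34 in 2VO against 73.25 in Sham. Ranked among genes above 0 in each library, Egr3 stood at 78.48 in 2VO and 78.59 in Sham. It then left both counts, so they depend on the ranking used.

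**Figure D5:**
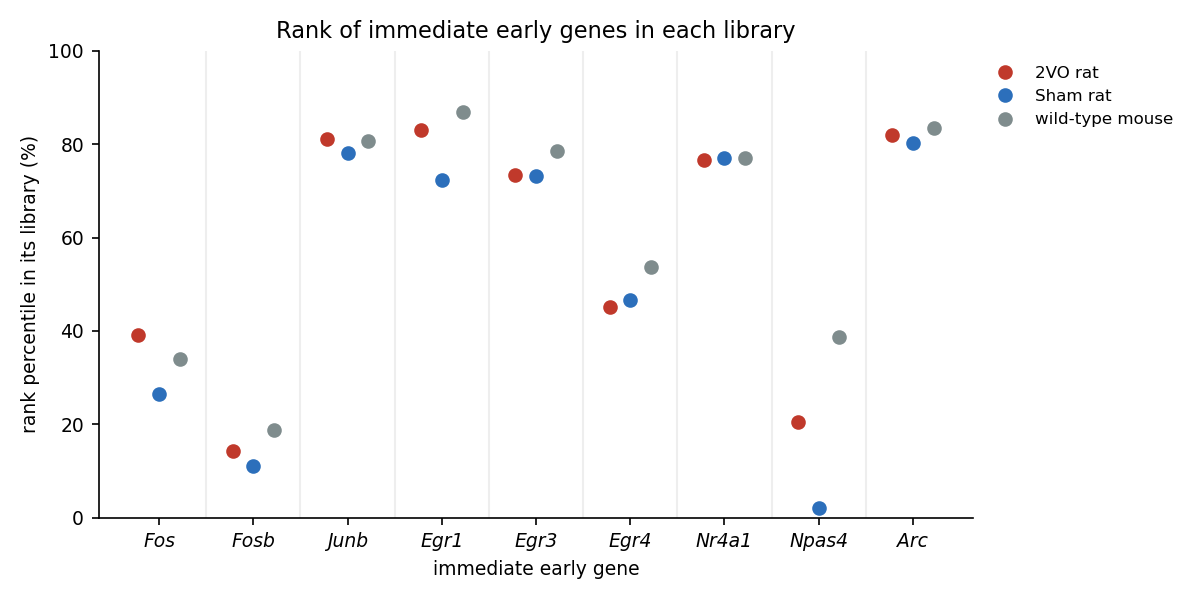
Rank percentile of 9 immediate early genes in the 2VO rat, the Sham rat and the wild-type mouse, among 11952 symbols shared by both species, 1 point per library. Npas4, which entered the ranking only through 2VO and the mouse, runs from 2.15 in Sham to 38.7 in the mouse, while Nr4a1 stays between 76.7 and 77.1.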

How the data were processed

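Per the labels' protocols, hippocampal RNA was extracted with TRIzol and libraries, 1 per group, were made with a TruSeq v2 kit. The submitters' processing notes list HISAT2 2.1.0, fastp 0.21.0 and DESeq2, with mRatBN7.2 and GRCm39 as builds, and give no roles. No source used here names the quantifier, annotation or filters. Each deposited table holds 1 normalized expression signal per gene, never negative; its scaling is not stated by the authors, so counts, depth and counting intervals could not be given.

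Strand use in counting is not stated, so reads of overlapping genes on opposite strands may be joined. Groups were taken from titles and model labels. The planned rule for counts was not needed. Values were used without rescaling: log2 ratios of 2VO over Sham were computed with 1 unit added, over genes with a rat mean of at least 1 unit, and 1.5-fold marked a gene. The members, the 16 other gene lists and the thresholds were chosen with earlier results of these data known. All members are named; of the other lists, genes past 2-fold, genes past 1.5-fold and the gene with the highest mean were to be named, and others are examples chosen after their values were seen. For the cell type lists this was followed past 2-fold; their genes between 1.5-fold and 2-fold and of highest mean are mostly counted and not named. List symbols missing from the rat table were matched by RefSeq synonyms. Promoters are from RefSeq, assembly GRCr8, which differs from the named build. Alternatives were other added units, filters, scalings, centrings (lowess span 0.3) and a 2-fold threshold; a ratio with no added unit was chosen after seeing the data. Simulated data were used to test the scripts' arithmetic. Python 3.11.15, pandas 2.3.3, numpy 2.4.6, statsmodels 0.14.6 and matplotlib 3.10.9 were used.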

Additional observations from a re-analysis of the deposited data

How the results depend on the processing

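The count of members at least 1.5-fold higher in 2VO, 3 as reported, was 1 when ratios were centred on the pan-neuronal markers and 1 at a 2-fold threshold. It was 2 with 4 units added (without Fos) and over a mean of at least 5 units (where Npas4 was not measured), and 3 in the remaining settings. The count at least 1.5-fold lower was 0 throughout. Over all genes, 205 higher and 131 lower as reported, the counts were 342 and 215 with 0.25 units added, 70 and 50 with 4 units added, 97 and 59 over a mean of at least 5 units, 70 and 502 when centred on the pan-neuronal markers, 416 and 258 with no unit added, and 33 and 27 at 2-fold. Upper-quartile, median-of-ratios and top-50-removed scaling and the lowess trend gave 48.6%, 51.2%, 52.6% and 50.6% higher among genes past 1.5-fold, against 61.0% as reported. Over the 4 scalings and centrings that use all genes the largest shift of a member ratio was 0.05 log2 units, and pan-neuronal centring moved each by 0.23. The filters cannot change a ratio. Other added units moved Npas4 to 0.66, 2.16 and 2.63 and Egr2 to 0.13, 0.70 and 1.02, with 4, 0.25 and 0 units added. Ranked among genes above 0 in each library, Npas4 stood at percentile 35.9 in 2VO, 18.5 in Sham and 50.7 in the mouse, and 15 of the 27 member percentiles moved by at least 5 points. Unknown depth leaves the counting error of low values such as those of Npas4 and Egr2 without a bound. No paired analysis was possible because each group holds 1 library.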
